A study of Mus musculus with 3 samples.

Results

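The cells described here are *Trem2* macrophages taken from implanted human skin, divided by how much of their RNA came from the protease gene *Mmp12* and the lipase gene *Lpl*. The base set held the cells of 1 droplet library with at least 2 unique molecular identifiers (UMIs, which count captured RNA molecules) of *Trem2*, at most 1 UMI of *Cd163* and none of *Cd3d*, *Cd3e* or *Cd3g*. Cells with at least 0.2% of their gene UMIs in *Mmp12* and *Lpl* together are called protease-lipid high, and cells under 0.1% protease-lipid low. The rule found 383 base cells among the 2144 cells that passed quality limits, 17.9% of them, out of 20304 barcodes in the whole series. Of these, 149 were high (38.9%, 95% Clopper-Pearson interval 34.0 to 44.0%), 226 were low (59.0%, 53.9 to 64.0%) and 8 lay between the limits. *Mmp12*, *Lpl*, *Trem2*, *Cd163* and the *Cd3* genes chose the cells, so their values are not findings. The members were chosen by these measured genes, and every other gene of the contrast is given as a description.

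The library, hSTSG, came from split-thickness human skin (TheraSkin) placed in pockets below the back skin of C57BL/6J mice and taken out on day 14, with the digests of 5 mice pooled. Collagenase released the cells, which were run on the 10x 3′ v3 platform, and only mouse genes were counted. For comparison, 2 libraries from marrow cells of C57/BL6 mice, kept in GM-CSF until day 7, were used, 1 untreated (Co-Mac) and 1 given 1,25-dihydroxycholecalciferol (VD3) at 1 µM for 24 hours (VD-Mac). Each condition is 1 library, so no difference has a replicate check and no test was made. Intervals are exact 95% intervals for counting error only. Levels are gene UMIs per 1000000 (CPM) over the summed cells of a group.

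TREM2 is a lipid-sensing receptor of macrophages that signals through the adaptor TYROBP, and it is known for cells that take up debris and lipids in injured tissue. *Mmp12* encodes macrophage elastase, which degrades elastin and other matrix proteins, and *Lpl* encodes lipoprotein lipase, which releases fatty acids from circulating lipoproteins. Both are secreted, and both are widely seen in macrophages that handle foreign material, matrix and fat.

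The high cells had a median of 17458 gene UMIs (lowest 741, highest 95060) and 3576 genes, and the low cells a median of 15727 (1425 to 74330) and 3633.5 genes. Mitochondrial UMIs made up a median of 2.76% in high and 3.89% in low cells. The graft library as a whole held 24472200 gene UMIs in 2644 barcodes. Doublets were not called and were kept. Of the barcodes in the graft library, 7 also occurred in Co-Mac and 7 in VD-Mac. Of those shared with Co-Mac, 1 belonged to a base cell of the graft, and 0 barcodes were base cells in both libraries.

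The sides are set by limits on a share, and whether they are separate types or ends of a range was not tested. The share of *Mmp12* and *Lpl* ran from 0.203% to 8.54% in high cells, with a median of 0.919%, and reached 0.0986% in low cells. The 8 cells between spanned 0.106% to 0.156%. Few cells lay near a limit, with 11 high cells under 0.3% and 17 low cells at 0.05% or more, while 103 low cells had no UMI of either gene. *Mmp12* carried most of the selection, since 137 high cells passed on it alone, 32 on *Lpl* alone and 25 on each of the genes. No *Lpl* UMI was found in 50 high cells. At the *Trem2* limit, 21 high and 45 low cells had exactly 2 UMIs, and among cells with 1 UMI that met the other terms 23 reached 0.2% and 128 lay under 0.1%. The *Cd163* limit removed few cells from the high side and more from the low side, since 3 cells with 2 or more *Cd163* UMIs reached 0.2% and 62 lay under 0.1%.

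**Figure D1:**
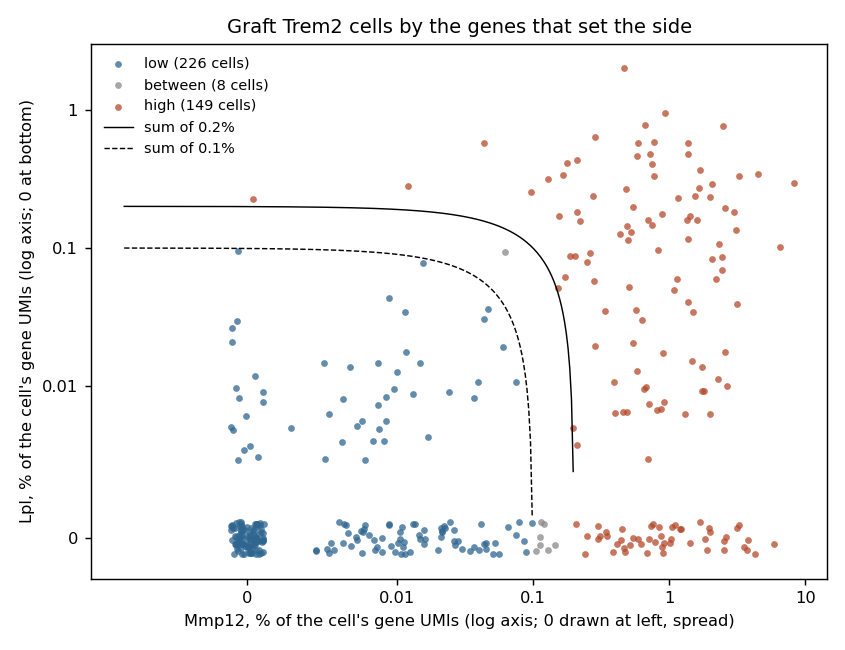
Share of gene UMIs from *Mmp12* (x) and *Lpl* (y) in each graft *Trem2* cell, both in percent on log axes with 0 drawn at the edge; lines mark sums of 0.2% and 0.1%. The 149 high cells reach 8.54% and spread over both axes, and the 8 cells between the limits lie apart from most of the 226 low cells.

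The library carries antibody hashtags, and the labels do not say what each one marks. A cell was given a hashtag when 1 hashtag held over 50% of its hashtag UMIs, of which there had to be at least 10. The sides were uneven over them: hashtag 4 led in 64 high and 156 low cells and hashtag 5 in 65 high and 38 low cells, with 10 and 12 cells for hashtag 3. High cells made up 29.1% (23.2 to 35.6%) of both sides in hashtag 4 and 63.1% (53.0 to 72.4%) in hashtag 5. A difference between the sides over all cells therefore also compares cells of different hashtags. For this reason ratios within hashtags 4 and 5, which share no cells, are given beside many of the results.

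The label was checked against its markers. *Gpnmb* had 1373 CPM in high and 440.0 CPM in low cells, *Spp1* 25130.4 and 4490 CPM, and *Trem2*, which the rule used, 740.5 and 520.3 CPM. The macrophage markers had UMIs on both sides, led by *Lyz2* (lysozyme) with 10451 CPM in high and 9870 CPM in low cells. *Adgre1*, which encodes the F4/80 antigen, was lower in high cells at 101.5 CPM compared with 324.6 CPM (log2 ratio −1.68). *Csf1r*, the receptor for the growth factor CSF1, was also lower (log2 ratio −0.93).

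Markers of other cell types were low but not absent, and their part in the results was not tested. The 6 neutrophil markers summed to 195.5 CPM in high and 515.3 CPM in low cells, led by *S100a8* at 136.7 and 334.5 CPM, with 0 UMIs of *Ly6g* in high cells. The 6 fibroblast markers summed to 66.5 and 72.3 CPM, led by *Col3a1*, and the 4 endothelial markers to 35.3 and 65.6 CPM, led by *Pecam1*. The 6 B lineage markers gave 26.3 and 32.0 CPM, led by *Igkc*, the 6 dendritic cell markers 4.95 and 18.2 CPM, led by *Cd209a* in low cells at 10.9 CPM, and the 3 red cell markers 29.7 and 62.1 CPM, led by *Hbb-bs*. The T cell, NK cell and keratinocyte markers each stayed under 10 CPM on both sides. The mast cell and basophil markers gave 1.86 and 68.2 CPM, the latter from *Mcpt8*, whose 285 UMIs all lay in 1 low cell. Leaving out the cells with at least 0.1% of their UMIs in these markers, without those of dendritic and red cells, kept 142 high and 212 low cells and all 30 genes named by rank in their direction, a limit chosen after seeing the data. The limit set beforehand, fewer than 2 UMIs of these markers, left 9 high and 17 low cells and kept 26 of the 30, with *AA467197*, *Rsad2*, *Chil3* and *Tfrc* reversed.

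The first question was which genes went with the protease and lipase. Of 7363 genes with at least 10 CPM on either side, 194 were at least 2-fold higher in high cells (2.63%) and 501 at least 2-fold higher in low cells (6.8%). Both shares describe the contrast that chose the cells. The side with more of the protease and lipase thus had fewer genes past 2-fold in its favour. The median log2 ratio (high over low, with 1 CPM added to each level) over 7045 genes was −0.23, and 26.9% of them were higher in high cells. The balance depended on the scaling. With TMM or median-of-ratios scaling all ratios rose by 0.22, the counts became 319 high and 290 low or 317 and 295, and the high genes made up 52.4% or 51.8% of the calls in place of 27.9%. With the side set by *Lpl* alone, which left 32 high cells, 24 of the 30 genes named by rank, 15 in each direction, kept their direction. Members of lists set beforehand are named where they passed 2-fold or were abundant, and other single genes were chosen after their values were seen. Medians of gene lists below are given beside the −0.23 of all genes. Counts of list members past 2-fold are to be read beside the 2.63% and 6.8% of all genes.

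Macrophages of the *Trem2* kind are known for a set of surface and secreted genes linked to repair. Osteopontin, galectin-3, milk fat globule protein and fibronectin bridge cells and matrix, tetraspanins organise the membrane, and CD11c (*Itgax*) pairs with an integrin chain for adhesion. The list of such genes, with 19 of 20 in the files, had a median log2 ratio of 0.43. In it 6 members passed 2-fold in high cells and 1 in low cells, compared with 2.63% and 6.8% of all genes. *Spp1*, which encodes osteopontin, lies on chromosome 5 of GRCm38 (chr5:104435118-104441050). It ran from 19.7 to 135227 CPM in single high cells with a median of 11741, and from 0 to 77253 CPM with a median of 897.5 in low cells. The log2 ratio of the sums was 2.48 (2.46 to 2.51). The cells overlapped widely, with most high cells above most low cells. After thinning every cell to 3000 UMIs, 95.2% of 146 high cells, 72.6% of 223 low cells and 25.0% of 236 T cells had an *Spp1* UMI. The T cells had a median depth of 5667 UMIs before thinning. They serve as a reference for free RNA, although activated T cells can make osteopontin, and how much of their share was free RNA was not tested.

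*Cd9*, a tetraspanin, had 1159 CPM (1122 to 1197) in high and 239.1 CPM (224.5 to 254.3) in low cells, and the log2 ratio was 2.28 (2.18 to 2.38). With all cells at 3000 UMIs it was seen in 78.8% of high, 33.6% of low and 8.05% of T cells. *Itgax* had 366.8 and 90.5 CPM (log2 ratio 2.02), and *Gpnmb*, a glycoprotein of melanosomes and lysosomes, a log2 ratio of 1.64 (1.56 to 1.72). *Lgals3*, which encodes galectin-3, had 6861 and 3336 CPM (log2 ratio 1.04). *Mfge8*, whose protein bridges dying cells to phagocytes, had 806.4 and 210.9 CPM (log2 ratio 1.94), and a median of 0 CPM per cell on both sides, so its level came from a minority of cells. The receptor's adaptor *Tyrobp* did not follow these genes, at 1402 and 1533 CPM. The member past 2-fold the other way was *Thbs1*, which encodes the matrix protein thrombospondin-1, with 481.9 CPM in high and 1635 CPM in low cells (log2 ratio −1.76). The list's median was 0.05 within hashtag 4 and 0.32 within hashtag 5.

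**Figure D2:**
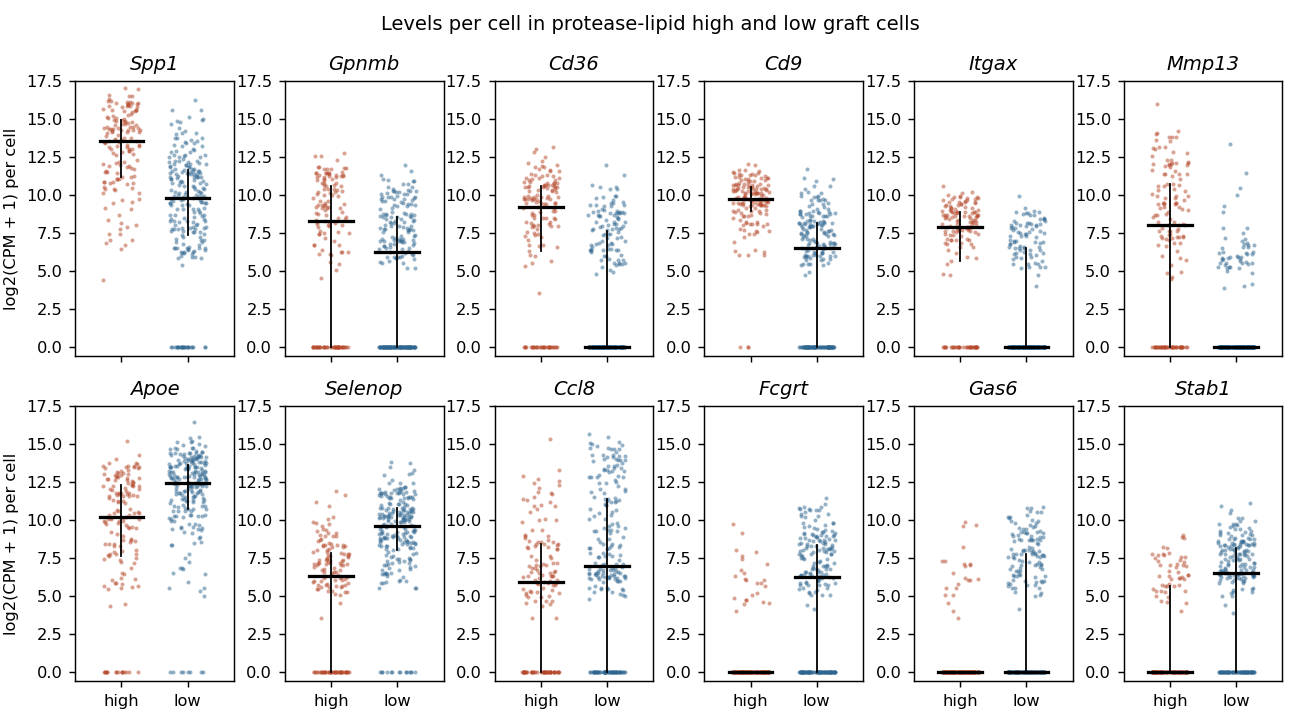
Levels of 12 genes in each high (149) and low (226) cell as log2(CPM + 1), with lines at the median and quartiles. *Spp1*, *Cd36*, *Cd9* and *Itgax* lie higher in high cells and *Selenop*, *Fcgrt*, *Gas6* and *Stab1* in low cells, with overlap in every panel.

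*Mmp12* sits in a cluster of matrix metalloprotease genes, enzymes that cut collagens, elastin and other matrix proteins. The question was whether its neighbours rose with it. *Mmp13*, which encodes collagenase-3, lies next to *Mmp12* on chromosome 9 of GRCm38 (chr9:7272514-7283331, ENSMUSG00000050578, with *Mmp12*, ENSMUSG00000049723, at chr9:7344381-7369499). It had 1572 CPM (1529 to 1616) in high and 56.4 CPM (49.5 to 64.0) in low cells, a log2 ratio of 4.80 (4.61 to 4.99). UMIs of it were found in 71.1% of high and 23.0% of low cells without thinning, and after thinning in 51.4%, 5.38% and, among T cells, 3.81%. The share in low cells was thus close to that in T cells, and 1 low cell held 55.0% of the low side's *Mmp13* UMIs. In high cells the levels ran from 0 to 65194 CPM with a median of 258.1. The cells with 2 or more *Cd163* UMIs and *Mrc1* had 1952 CPM, so the level was not higher in high cells than in that group, in which 1 cell gave 21.8%.

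The other genes of the cluster were sparse. *Mmp8*, neutrophil collagenase, had 66.2 and 32.2 CPM (log2 ratio 1.04), and *Mmp10*, stromelysin-2, had 37 UMIs from 3 high cells and 3 UMIs from 1 low cell. *Mmp27* had 20 and 4 UMIs. *Mmp3*, stromelysin-1, did not follow, with 14 UMIs in high and 28 in low cells (log2 ratio −0.62, −1.65 to 0.36), and *Mmp1b*, *Mmp20* and *Mmp7* had 0 UMIs on both sides, which allows up to 3 UMIs. The rise over all cells thus held for some genes of the cluster and not for all. The log2 ratio of *Mmp8* was −3.59 with the side set by *Lpl* alone and −4.27 without cells of 2 UMIs of other markers. *Mmp9*, gelatinase B on another chromosome, had 17.0 CPM in high and 91.7 CPM in low cells, but 1 low cell gave 70.8% of the low level, and within hashtag 5 the log2 ratio was 1.11 (−0.18 to 2.66). Over the 18 listed proteases and inhibitors, 13 of which reached 10 CPM over both sides, the median log2 ratio was 0.31. *Mmp13*, *Mmp10* and *Mmp8* passed 2-fold in high cells and *Mmp9* and *Serpinb6a*, a serine protease inhibitor, in low cells.

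Because *Mmp12* and *Mmp13* moved together, their promoters are shown. Motifs were searched on both strands in RefSeq promoter windows of GRCm38.p6, from 250 bases before to 50 after each start. The first was TGACTCA, the form bound by AP-1 factors, whose opposite strand reads TGAGTCA. The second was AGGTCA, an element bound by nuclear receptors, which reads TGACCT on its opposite strand, and the last was the palindrome CACGTG. None holds another. TGACTCA was found in 17 of 176 windows of genes called higher in high cells (9.66%, 5.73 to 15.0%), in 20 of 512 windows of genes called higher in low cells (3.91%, 2.40 to 5.97%), in 3.96% of windows of all genes tested and in 5.20% of all 32851 windows. Windows matched 145 of the 194 and 392 of the 501 genes. Some genes have several windows, and the intervals count each window as separate, so they can be too narrow. AGGTCA was in 18.8%, 12.5%, 12.4% and 16.3% of the same windows, and CACGTG in 6.82%, 8.79%, 11.0% and 7.15%. The 250 bases upstream of the *Mmp13* start and of both listed *Mmp12* starts follow, on the plus strand of chr9:7272264-7272513, chr9:7344147-7344396 and chr9:7347124-7347373, with matches in capitals.
Mmp13: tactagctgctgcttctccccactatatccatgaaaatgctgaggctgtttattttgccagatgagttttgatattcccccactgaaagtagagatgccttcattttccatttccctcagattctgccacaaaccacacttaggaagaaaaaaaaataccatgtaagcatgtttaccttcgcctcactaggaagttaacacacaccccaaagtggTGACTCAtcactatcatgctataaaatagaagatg
Mmp12 window 1: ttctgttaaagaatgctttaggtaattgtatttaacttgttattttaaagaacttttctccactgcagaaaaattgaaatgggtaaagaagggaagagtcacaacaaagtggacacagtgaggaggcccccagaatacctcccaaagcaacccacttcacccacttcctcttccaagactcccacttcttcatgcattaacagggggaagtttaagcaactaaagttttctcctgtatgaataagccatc
Mmp12 window 2: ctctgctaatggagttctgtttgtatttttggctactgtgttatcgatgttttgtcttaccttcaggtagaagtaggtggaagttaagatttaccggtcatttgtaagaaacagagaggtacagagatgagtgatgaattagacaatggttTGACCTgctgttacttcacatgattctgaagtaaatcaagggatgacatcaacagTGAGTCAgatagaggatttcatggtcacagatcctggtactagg
The *Mmp13* match begins 35 bases before the start. In *Mmp12* window 2 TGAGTCA begins 44 bases and TGACCT 99 bases before the start, and window 1 holds none of the letters searched. A match describes the letters only and was not tested as a binding site.

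Cathepsins are the proteases of lysosomes, and some are also secreted. The 13 genes of cathepsins, legumain and their inhibitors had a median log2 ratio of 0.23, with 9 of 12 members at 10 CPM or more higher in high cells, compared with 26.9% of all genes. *Ctsl* had 13213 CPM in high and 5367 CPM in low cells (log2 ratio 1.30) and *Ctsk*, the collagen-cleaving cathepsin of osteoclasts, 727.2 and 257.5 CPM, although 1 low cell gave 43.6% of the low side's *Ctsk*. *Ctsb* did not differ beyond counting error (5888 and 5967 CPM, log2 ratio −0.02, −0.05 to 0.01). The list's median lay 0.46 above that of all genes, and *Ctsl* and *Ctsk* alone passed 2-fold. The rest of the lysosome did not follow: of 29 genes for acidification, hydrolases and regulators, 0 passed 2-fold, and their median of −0.21 lay at that of all genes and became 0.01 under TMM scaling. Of the 12 genes of cell fusion and osteoclasts, *Dcstamp*, which encodes a fusion receptor, had 48.9 CPM in high and 1.66 CPM in low cells (log2 ratio 4.88) and UMIs in 24.2% and 1.33% of cells. *Nfatc1*, the factor that directs osteoclast formation, was lower in high cells (17.3 and 39.6 CPM, log2 ratio −1.19), with 43.7% of the low level from 1 cell, and *Acp5*, the acid phosphatase of osteoclasts, had 338.4 and 336.4 CPM. The fusion gene *Ocstamp* was lower in high cells (7.73 and 13.5 CPM, −0.80), and *Car2* (0.79) and *Atp6v0d2* (0.55) were higher but short of 2-fold. Of 10 listed genes at 10 CPM or more, 5 were higher in high cells, compared with 26.9% of all genes. The list's median of −0.07 lay 0.16 above that of all genes, became 0.15 under TMM scaling, and was −0.06 within hashtag 4 and 0.85 within hashtag 5.

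Macrophages take in lipoproteins through scavenger receptors, split their esters in lysosomes and return cholesterol to carriers such as apolipoprotein E. Since *Lpl* helped choose the cells, the question was which of these steps went with it. Of the listed uptake receptors 2 passed 2-fold in high cells, with the lysosomal lipase. *Cd36*, which binds oxidised lipoproteins and fatty acids, had 963.5 CPM (930.0 to 998.0) and 182.9 CPM (170.2 to 196.3), a log2 ratio of 2.40 (2.28 to 2.51), with a median of 585.6 CPM per high cell and 0 per low cell. *Olr1*, another receptor for oxidised lipoproteins, had 70.2 and 12.1 CPM (log2 ratio 2.54), and *Lipa*, the lysosomal acid lipase, 258.3 and 104.7 CPM (log2 ratio 1.30). The scavenger receptors *Msr1* (0.42) and *Lrp1* (0.60) were short of 2-fold, and *Scarb1* was at −0.15. Of the genes of lipid export and its control 3 were past 2-fold lower, while the cholesterol exporters *Abca1* (−0.56) and *Abcg1* (−0.16) were not. *Apoe* had 3690 CPM in high and 8408 CPM in low cells (log2 ratio −1.19), with medians of 1189 and 5596 CPM per cell, and was −1.24 within hashtag 4 but −0.28 within hashtag 5. *Pltp*, the phospholipid transfer protein, had 242.5 and 611.0 CPM (log2 ratio −1.33), and *Nr1h3*, the sterol-sensing receptor LXR alpha that controls both genes, 21.0 and 44.1 CPM (log2 ratio −1.07). The direction of *Nr1h3* turned with the side set by *Lpl* alone (0.07) and in cells of 5000 to 20000 UMIs (0.26). *Dgat2*, which makes triglyceride, was also lower (5.88 and 15.9 CPM, log2 ratio −1.43).

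Of the 25 listed lipid genes at 10 CPM or more, 13 were higher and 12 lower in high cells, compared with 26.9% of all genes higher, and 3 passed 2-fold in high and 4 in low cells. The list had a median of 0.09, which was 0.33 above that of all genes and became 0.32 under TMM scaling. The fatty acid carrier *Fabp5* (3653 and 3087 CPM) and the lipid droplet coat *Plin2* (558.6 and 380.7 CPM, log2 ratio 0.55) were short of 2-fold. Genes of cholesterol and fatty acid synthesis had a median of 0.03 (−0.15 within hashtag 4), and only *Scd2*, a desaturase, passed 2-fold among the 10 tested (85.1 and 41.7 CPM, log2 ratio 1.03).

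Macrophages also make inflammatory mediators, and an inducible nitric oxide synthase marks activation by microbial products and interferon. *Nos2*, which encodes it, had the largest ratio among the genes named by rank, 91.2 CPM (81.1 to 102.3) in high and 1.66 CPM (0.667 to 3.42) in low cells, with a log2 ratio of 5.78 (4.72 to 7.11). With the side set by *Lpl* alone the log2 ratio of *Nos2* was −1.92. Its UMIs were concentrated: 26.8% of high cells had a UMI, and 1 cell held 26.4% of them. After thinning it was seen in 19 of 146 high, 2 of 223 low and 0 of 236 T cells, which allows up to 3 T cells. *Tnfrsf9*, the costimulatory receptor 4-1BB, had 293.2 and 33.9 CPM (log2 ratio 3.11) but a log2 ratio of 0.44 (0.00 to 0.87) within hashtag 4 and 3.39 within hashtag 5. T cells, which make this receptor when activated, had 649.8 CPM of *Tnfrsf9*, and after thinning it was seen in 28.8% of high, 6.73% of low and 47.0% of T cells. The part of free RNA was not tested.

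Of the 19 inflammatory genes, *Nos2*, *Ccl5*, *Cxcl3* and *Il1a* passed 2-fold in high cells and *Il6*, *Ccl7*, *Ccl2* and *Il18* in low cells. The list's median of −0.15 became 0.08 under TMM scaling, and it was −0.33 within hashtag 4 and 0.46 within hashtag 5. *Cxcl3*, a chemokine for neutrophils, had 382.9 and 126.8 CPM (log2 ratio 1.60), and the cytokine *Il1a* 74.5 and 34.8 CPM (log2 ratio 1.10). Their log2 ratios were −0.53 and −1.20 with the side set by *Lpl* alone. *Ccl5*, a chemokine for T cells, had 338.4 and 40.0 CPM (log2 ratio 3.08), but 1 high cell held 44.7% of it, and the ratio was −1.86 (−4.25 to −0.11) within hashtag 4, from levels under 10 CPM, and 1.61 within hashtag 5. The monocyte chemokines *Ccl7* (210.3 and 850.6 CPM, log2 ratio −2.02) and *Ccl2* (277.8 and 636.8 CPM, log2 ratio −1.20) were lower in high cells, the latter −1.02 and −1.27 within hashtags 4 and 5. *Il18* had 24 and 71 UMIs (log2 ratio −1.18). The low side's *Il6* came to 88.2% from 1 cell. Over all cells *Ccl2* and *Ccl7* were thus past 2-fold on the low side and *Cxcl3* and *Ccl5* on the high side. In the 9 high and 17 low cells without 2 UMIs of other markers, *Ccl2* was 1.51 and *Ccl7* 0.69. *Ccl5* was −3.80 with the side set by *Lpl* alone.

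Interferon-stimulated genes depended on the hashtag. *Rsad2*, an antiviral enzyme (log2 ratio 2.33), *Ifit2* (2.19), *Irf7*, the factor that amplifies interferon output (1.18), and *Isg15*, a ubiquitin-like modifier (1.04), passed 2-fold in high cells over all hashtags, and the list's median was 0.56. Within hashtag 4 the median was −0.77, with *Rsad2* at 0.70 (−0.04 to 1.44), *Irf7* at −1.63 and *Isg15* at −0.53, and within hashtag 5 it was 0.62. The direction over all cells was therefore not that of hashtag 4.

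Hypoxia raises glycolytic enzymes through HIF factors, which prolyl hydroxylases mark for destruction. The list of glycolysis and hypoxia genes had the highest median of the 19 lists, 0.71. In it 14 of 15 genes were higher in high cells, compared with 26.9% of all genes. The list's median was 0.70 within hashtag 4 and 0.90 within hashtag 5. *Egln3*, a prolyl hydroxylase that HIF itself induces, had 62.5 and 14.5 CPM (log2 ratio 2.11), *Ankrd37* 23.8 and 5.92 CPM (log2 ratio 2.01), and the mitophagy gene *Bnip3* 208.2 and 97.6 CPM (log2 ratio 1.09). The enzyme gene *Pgk1* had 1030 CPM (995 to 1065) in high and 483.8 CPM (463.0 to 505.2) in low cells, with medians of 1078 and 354.9 CPM per cell. *Gapdh* and *Ldha* were higher but short of 2-fold (log2 ratios 0.71 and 0.86). The angiogenic factor *Vegfa* did not differ beyond counting error (0.05, −0.06 to 0.16). Of the 15 genes 4 passed 2-fold, with *Pgk1* the only glycolytic enzyme among them, and *Adm* was lower (log2 ratio −0.25). With the side set by *Lpl* alone the list's median was 0.22, *Egln3* was −1.61 and *Bnip3* −1.12.

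*AA467197*, the mouse counterpart of human C15orf48, encodes a mitochondrial protein that can take the place of the respiratory subunit NDUFA4 in inflamed cells. It had 736.2 CPM (706.9 to 766.4) in high and 137.9 CPM (126.9 to 149.6) in low cells, a log2 ratio of 2.42, with medians of 439.2 and 0 CPM per cell. *Ndufa4* moved the other way, with 113.5 and 243.3 CPM (log2 ratio −1.10), and was the only listed respiratory gene past 2-fold in low cells, while its relative *Ndufa4l2*, induced in hypoxia, had 34 and 6 UMIs (log2 ratio 2.89). The 76 respiratory genes at 10 CPM or more had a median of −0.04, which became 0.19 under TMM scaling. The change over all cells thus concerned this subunit and its relatives and not the list. *AA467197* was −0.10 with the side set by *Lpl* alone and −0.51 without cells of 2 UMIs of other markers.

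The remaining genes named by rank on the high side have less in common. *Clmp*, an adhesion molecule of cell junctions, had 86.9 and 14.5 CPM (log2 ratio 2.59), *Zranb3*, which remodels stalled replication forks, 51.0 and 8.53 CPM (2.58), *Npy*, neuropeptide Y, 111.0 and 20.8 CPM (2.41), and *H2-M2*, a nonclassical class I molecule, 119.1 and 23.2 CPM (2.36). For *Npy* 1 high cell gave 33.1% and 1 low cell 38.6% of the level. *Chil3*, the chitinase-like protein Ym1, had 3548 and 748.0 CPM (log2 ratio 2.25), but the median per cell was lower in high cells, 31.6 and 44.2 CPM. A single high cell held 26.0% of its UMIs, and the log2 ratio was 0.42 within hashtag 4 and 3.34 within hashtag 5.

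Tissue-resident macrophages are known for scavenger and lectin receptors, complement and bridging proteins that clear dying cells. The low side carried these genes. All 17 genes of the resident-type list at 10 CPM or more were lower in high cells, 12 of them past 2-fold. Of all genes, 26.9% were higher in high cells and 6.8% passed 2-fold in low cells. The list's median was −1.57, with −1.73 within hashtag 4 and −1.45 within hashtag 5. *Selenop*, which exports selenium, had 223.0 CPM (207.0 to 239.9) in high and 1450.4 CPM (1414 to 1487) in low cells, with medians of 80.1 and 777.3 CPM per cell, a log2 ratio of −2.70 (−2.81 to −2.59). After thinning it was seen in 32.9% of high, 75.3% of low and 28.4% of T cells, so that its share in high cells lay near that in T cells. *Gas6*, which bridges dying cells to TAM receptors, had 24.7 and 203.5 CPM (log2 ratio −3.04), and *Stab1*, a scavenger receptor, 44.9 and 238.6 CPM (−2.41). *Cbr2*, a carbonyl reductase, had 20.7 and 151.6 CPM (−2.87).

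The chemokine gene *Ccl8* had 936.3 and 4790 CPM (log2 ratio −2.36), with 27.1% of the high level from 1 cell. The complement genes *C1qa* (1165 and 2862 CPM, −1.30) and *C1qc* (778.2 and 1649 CPM, −1.08) were lower too, as were the mannose receptor *Mrc1* (1053 and 2290 CPM, −1.12) and the transcription factor *Maf* (100.2 and 299.5 CPM, −1.58). *Lyve1* (−2.26), *Fcna* (−2.02) and *Cd209f* (−3.19) rested on few cells, with 91.9% of the high side's *Lyve1* from 1 cell. Macrophages with at least 2 *Cd163* UMIs and *Mrc1*, 132 cells that the rule kept out, had more of these genes still, with 3382 CPM of *Selenop*, 23932 CPM of *Ccl8* and 497.5 CPM of *Gas6*. The low cells thus lay between them and the high cells for these 3 genes.

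*Tmem176a* and *Tmem176b*, neighbouring genes for membrane proteins of antigen-presenting cells that overlap on chromosome 6 of GRCm38 (chr6:48840919-48847071 and chr6:48833818-48841496), had the largest ratios on the low side by rank. They had 6.81 and 96.9 CPM (log2 ratio −3.83, −4.52 to −3.21) and 7.73 and 109.5 CPM (−3.82, −4.47 to −3.24) in high and low cells. After thinning *Tmem176a* was seen in 4.11% of high, 20.6% of low and 35.6% of T cells and *Tmem176b* in 3.42%, 23.8% and 27.1%, and the part of free RNA was not tested. *Fcgrt*, the receptor that recycles antibodies and albumin, had 25.1 CPM (19.9 to 31.1) and 282.9 CPM (267.1 to 299.4), and the log2 ratio was −3.50 (−3.84 to −3.17). At 3000 UMIs per cell it was seen in 4.11% of high, 35.9% of low and 0.847% of T cells, and the *Cd163* macrophages had 970.1 CPM. Complement *C4b* (7.42 and 88.4 CPM, log2 ratio −3.57) and *Rnase4*, a secreted ribonuclease (49.5 and 329.3 CPM, −2.73), followed the same order. So did the galactose-binding lectins *Mgl2* (13.3 and 89.1 CPM, −2.74) and *Clec10a* (18.2 and 93.6 CPM, −2.36), and *Fcrls*, a scavenger-type receptor (16.7 and 109.7 CPM, −2.72). *Tfrc*, the transferrin receptor for iron uptake, had 37.4 and 246.9 CPM (−2.72), with 18.0% of the low level in 1 cell.

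Monocytes entering tissue carry *Ly6c2* and *Plac8*, which fade as they become macrophages. Of the 11 listed genes at 10 CPM or more, 7 were lower and 4 (36.4%) higher in high cells, compared with 26.9% of all genes higher. Those lower included *Plac8* with 26.6 and 262.7 CPM (log2 ratio −3.30), *Ly6c2* 6.19 and 42.4 CPM (−2.78), the versican gene *Vcan* 22.3 and 77.2 CPM (−1.79), and the chemokine receptor *Ccr2* 43.0 and 93.6 CPM (−1.12). *Ifitm1*, an interferon-induced membrane protein outside the list, had 8.97 and 97.8 CPM (−3.45). *Plac8* was seen in 30.1% of low and 12.8% of high cells, so that its level came from a minority, before thinning. *Ifitm6* had 93 UMIs in low and 4 in high cells, and *Ms4a4c* 182 and 63. The 80 cells of the library chosen by *Plac8* and *Ly6c2* had 2082 CPM of *Ifitm1*, several times the level of low cells. Their 1757 CPM of *Plac8* follows from that choice. *Chil3* and the plasma protein gene *Hp* (146.0 and 70.1 CPM, 37.7% of the former from 1 cell) went the other way, as did, short of 2-fold, *F10*, a clotting factor (0.89), and *S100a4*, a calcium-binding protein (0.17). The list's median was −1.10, and −0.24 with *Trem2* of at least 5 UMIs, which is 0.02 below that of all genes there. Whether the low side as a whole was nearer to monocytes was not tested.

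**Figure D3:**
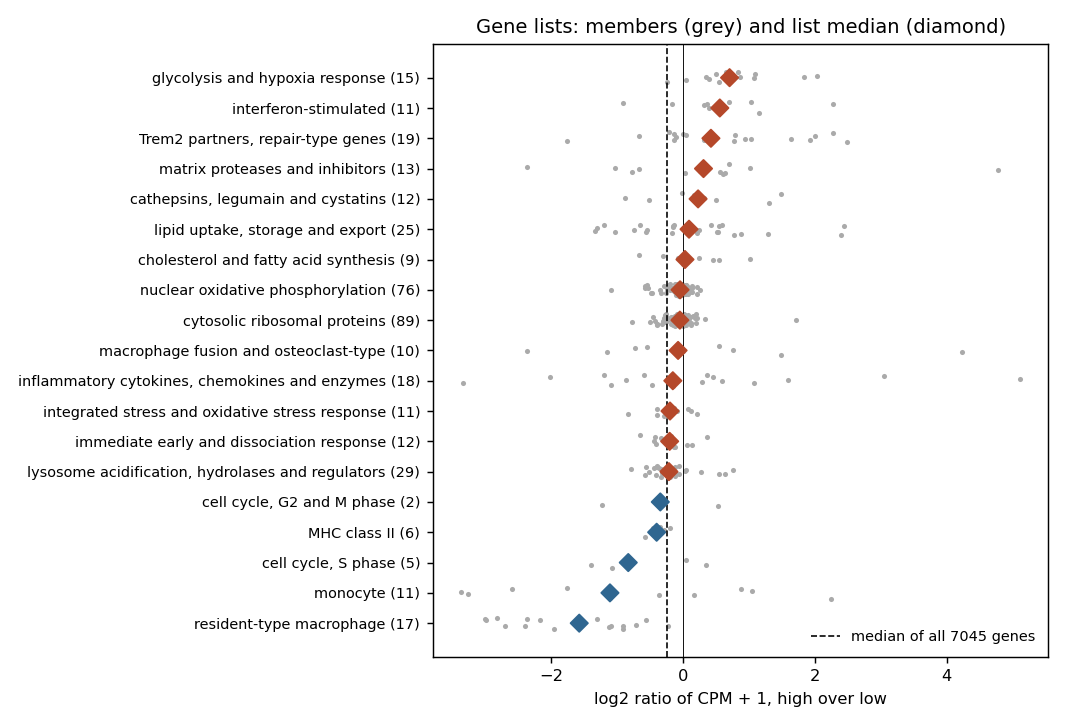
Log2 ratio (high over low, with 1 CPM added) of the members of each gene list (grey) and the list's median (diamond), with a dashed line at the median of all 7045 genes, −0.23. Resident-type genes lie lowest at −1.57 and glycolysis and hypoxia genes highest at 0.71, and medians between −0.22 and 0 change sign under TMM scaling.

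The remaining lists had few members past 2-fold. The 6 class II antigen presentation genes at 10 CPM or more were all lower in high cells but short of 2-fold, while 26.9% of all genes were higher. Their median was −0.40, and −0.17 under TMM scaling. Among them *Cd74*, the invariant chain, had 2407 and 3056 CPM. Stress response genes (−0.19), immediate early genes, which cell isolation induces (−0.20), and ribosomal protein genes (−0.04) had 0, 0 and 1 members past 2-fold, and these 3 medians became 0.04, 0.03 and 0.19 under TMM scaling. That of immediate early genes was −0.51 within hashtag 4 and 0.19 within hashtag 5. The member of the ribosomal list was *Rps6ka2*, a kinase that its name pattern took in. Cell cycle genes were scarce, with 5 of 12 S phase and 2 of 12 G2 and M phase genes at 10 CPM over both sides and medians of −0.83 and −0.34, or −0.61 and −0.12 under TMM scaling. The latter list's median, from 2 genes, was 0.46 within hashtag 4 and −3.96 within hashtag 5. That of S phase genes was 0.19 in cells of 5000 to 20000 UMIs and −0.04 after thinning. Without cells of 2 UMIs of other markers it was 1.52. *Mcm6* (19 and 57 UMIs, log2 ratio −1.20) and *Rrm1* (19 and 72 UMIs, −1.54), for DNA replication, and the proliferation marker *Mki67* (32 and 103 UMIs, −1.30) passed 2-fold in low cells, and *Pcna* did not differ beyond counting error.

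Hashtags 4 and 5 give the contrast in separate cells, and the question was how alike it was in them. Across 6488 genes at 10 CPM or more, the log2 ratios of the hashtags correlated with Pearson's 0.56 and Spearman's 0.46, a description over genes, which are not independent. Of 160 genes past 2-fold in high cells of hashtag 4, 147 (91.9%) were also higher in hashtag 5, compared with 30.8% of all genes. Of 543 past 2-fold in its low cells, 492 (90.6%) were lower in high cells of hashtag 5, compared with 69.2% of all genes. Read from hashtag 5, 223 of 313 genes past 2-fold in high cells (71.2%) were also higher in hashtag 4, and 102 (32.6%) passed 2-fold there, while 851 of 972 past 2-fold in low cells (87.6%) were also lower. All 30 genes named by rank kept their direction in both. They were chosen by ratios over all cells, most of which carry these hashtags, so this was largely set by the choice. *Cd9* had log2 ratios of 2.43 and 2.53, *Itgax* 2.36 and 2.14 and *Mmp13* 3.65 and 3.22 in hashtags 4 and 5, all higher in high cells in each. The level of *Mmp13* differed between hashtags, with 286.4 CPM in high cells of hashtag 4 and 2950 CPM in those of hashtag 5.

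High cells themselves varied in how much *Lpl* they held. Spearman correlations among the 149 high cells describe cells of 1 library with different depths, chosen by the sum of *Mmp12* and *Lpl*. The rule thus sets in part the relation of these 2 genes to each other. It can also shape the correlation of any other gene with either, so these values are descriptions only. *Mmp13* went with *Mmp12* (0.52) and not with *Lpl* (−0.31), *Cd9* (0.52), *Cd36* (0.51) and *Gpnmb* (0.38) went with *Lpl*, and *Mrc1* (−0.46) went against it. High cells were therefore divided, after these values were seen, into 52 cells with at least 0.1% *Lpl* (*Lpl*-rich), 75 under 0.02% (*Lpl*-poor) and 22 between. Correlations of *Spp1*, *Nos2*, *Egln3* and *Chil3* with *Lpl* had been seen as well, so differences of these genes and of *Cd36*, *Cd9*, *Gpnmb* and *Mrc1* between rich and poor cells restate the correlations. The rich cells held 32 of hashtag 4 and 6 of hashtag 5, the poor cells 20 and 51, so the division and the hashtags can only be told apart within hashtag 4. Rich cells had a median of 20543 UMIs and 3.05% mitochondrial UMIs, and poor cells 15182 UMIs and 2.23%. The part of depth in the differences between them was not tested. Poor cells reach the limit through *Mmp12* by the rule, and its levels were 9926 CPM in rich and 11100.1 CPM in poor cells. The genes named for this division were chosen after their values were seen. Of 7220 genes, 392 (5.43%) were at least 2-fold higher in rich and 501 (6.94%) in poor cells.

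Single genes differed, and no list was computed for this division. *Lipa* had 452.2 CPM in rich and 91.8 CPM in poor cells (log2 ratio 2.30, and 2.41 within hashtag 4), so that poor cells lay near the 104.7 CPM of the low side. *Cd36* had 1622 and 508.8 CPM (1.67, within hashtag 4 1.38) and *Itgax* 562.7 and 185.0 CPM (1.60, within hashtag 4 2.82). *Ctsk* (1.94), the peroxide-removing enzyme *Prdx1* (5889 and 1479 CPM, 1.99) and the creatine kinase *Ckb* (269.3 and 41.3 CPM, 2.70) were also past 2-fold, with 1.57, 2.02 and 2.58 within hashtag 4. *Spp1* (0.94), *Cd9* (0.98) and *Gpnmb* (0.85) were higher but short of 2-fold, although *Spp1* reached 1.81 within hashtag 4. *Nr1h3*, lower in high than in low cells, had 35.0 CPM in rich and 11.2 CPM in poor cells (1.64, within hashtag 4 1.01). *Soat1*, which stores cholesterol as esters, differed less (0.39).

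Other single genes were higher in poor cells. *Nos2* had 18.7 CPM in rich and 166.8 CPM in poor cells (log2 ratio −3.16, within hashtag 4 −3.34) and the acute phase gene *Saa3* 135.4 and 1987 CPM (−3.87, within hashtag 4 −4.17). *Hbegf*, a growth factor for epithelial cells, had 217.9 and 1396 CPM (−2.68, within hashtag 4 −2.02), and *Mrc1* 431.2 and 1683 CPM (−1.97, within hashtag 4 −1.44). *Egln3* (−2.29), *Chil3* (−2.13) and the class II gene *H2-Eb1* (−1.68) were higher in poor cells in the same way, with −1.78, −1.94 and −1.72 within hashtag 4. *Isg15* (−1.95) was −0.19 within hashtag 4, so its difference cannot be told apart from that between hashtags. *Trem2* differed little between rich and poor cells (821.8 and 709.9 CPM).

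The cultures show the same rule in cells grown without a graft. In Co-Mac the base set held 2766 cells, 2037 high, 446 low and 283 between, and in VD-Mac 3356 cells, 273 high, 2545 low and 538 between. Median depths of high and low cells were 24535 and 18042.5 UMIs in Co-Mac and 18836 and 16876 in VD-Mac. In Co-Mac 7.77% of 7859 genes were at least 2-fold higher in high and 4.9% in low cells, and in VD-Mac 3.25% and 4.18% of 7664. The low cells there carried dendritic cell markers, 776.5 CPM in Co-Mac and 647.1 CPM in VD-Mac compared with 115.8 and 65.7 CPM in high cells, led by *Ccr7*, while in the graft they gave 18.2 and 4.95 CPM. Neutrophil markers were higher still, with 8259.7 CPM in low and 1283.6 CPM in high cells of Co-Mac and 4115.9 and 596.8 CPM in VD-Mac, led by *S100a8*. At least 2 UMIs of macrophage markers were found in 77.4% and 79.6% of the low cells of Co-Mac and VD-Mac. The 7 macrophage markers summed to 11765.6 CPM in high and 2700.8 CPM in low cells of Co-Mac, led by *Lyz2*. In VD-Mac the sums were 8174.7 and 4613.9 CPM, while in the graft they were 12899.1 and 14292.6 CPM. The low sides of culture and graft are therefore different mixtures, and their part in the differences was not tested.

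Of the genes higher in graft high cells, 119 and 117 were also tested in Co-Mac and VD-Mac, and 50 (42.0%) and 45 (38.5%) passed 2-fold in the same direction and 15 (12.6%) and 11 (9.40%) in the opposite one. Of the genes higher in graft low cells, 335 and 326 were tested, 43 (12.8%) and 36 (11.0%) passed 2-fold in the same direction and 42 (12.5%) and 8 (2.45%) in the opposite one. Among all 6630 genes tested in both graft and Co-Mac, 533 passed 2-fold in high and 209 in low cells of Co-Mac. For VD-Mac these were 217 and 167 of 6553 genes. By sign, 75.6% of the genes higher in graft high cells were also higher in those of Co-Mac, compared with 68.3% of all genes. In VD-Mac these shares were 74.4% and 57.1%. Of genes higher in graft low cells, 37.0% in Co-Mac and 51.2% in VD-Mac kept that direction, compared with 31.7% and 42.9% of all genes. Of the 30 genes named by rank, some under 10 CPM there, 18 kept their direction in Co-Mac and 17 in VD-Mac. Across all genes the ratios were nearly unrelated, with Pearson's 0.13 for 6348 genes in Co-Mac and 0.20 for 6224 genes in VD-Mac. Some genes were shared. In number, 34 genes were at least 2-fold higher in high cells of all 3 libraries, among them *Spp1*, *Gpnmb*, *Cd36*, *Olr1*, *Lipa*, *Itgax*, *Ctsl*, *Dcstamp* and *Prdx1*, and 28 in low cells, among them *Tmem176a*, *Tmem176b* and *Plac8* but also the neutrophil genes *S100a8*, *S100a9* and *Lcn2*. Of all genes tested in graft, Co-Mac and VD-Mac, 2.63%, 7.77% and 3.25% were at least 2-fold higher in high cells. For low cells these shares were 6.8%, 4.9% and 4.18%. *Cd36* had log2 ratios of 2.40, 2.55 and 2.55 in graft, Co-Mac and VD-Mac, and *Gpnmb* 1.64, 1.55 and 2.15. *Cd9* was 0.64 and 0.89 in the cultures. *Mmp13* was nearly absent from Co-Mac, at 5.00 and 2.69 CPM, and had 27.6 and 0.202 CPM in VD-Mac.

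Resident-type genes were compared in the same way. The resident-type list's median was 0.83 in Co-Mac and 0.02 in VD-Mac, compared with −1.57 in the graft. The median of all genes was 0.20 in Co-Mac and 0.07 in VD-Mac, so the list lay 0.63 above it in Co-Mac and 0.05 below it in VD-Mac. These medians include *Gas6*, *Cbr2*, *Lyve1*, *Ccl8*, *Maf*, *Cd209f* and *Fcna*, which were under 10 CPM in both cultures. *Mrc1* had 109.5 and 9.34 CPM in Co-Mac and 49.8 and 19.0 CPM in VD-Mac, higher in high cells, and *Ccl8* had 0 UMIs in both. *Nos2* had 10 UMIs in the high cells of Co-Mac, 0 in its low cells and 0 in VD-Mac. *Tnfrsf9* and *Ccl5* were lower in high cells of both cultures. The split by *Mmp12* and *Lpl* thus went with more *Spp1*, *Gpnmb*, *Cd36* and *Olr1* in all 3 libraries. In the cultures, unlike the graft, it also went with a higher sum of macrophage markers. The part of macrophage content in the shared genes was not tested. For the resident-type list the difference between graft and cultures was not tested.

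**Figure D4:**
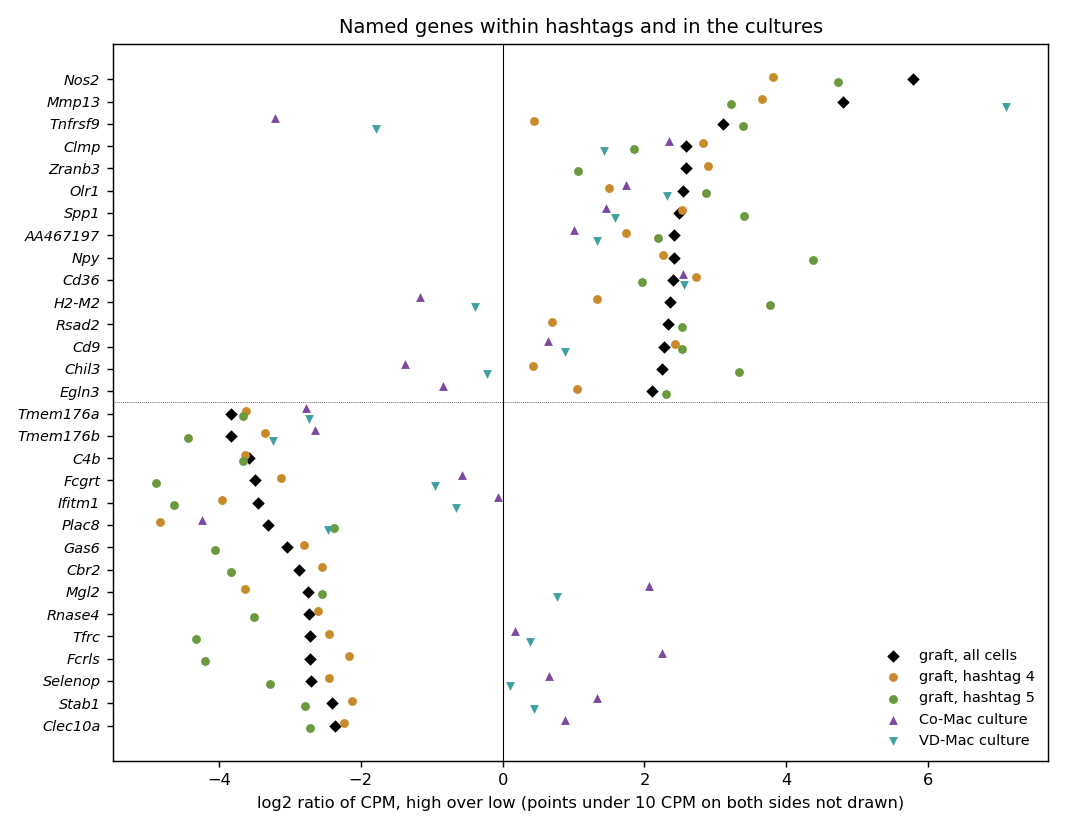
Log2 ratio (high over low) of the 30 genes named by rank in the graft over all cells, within hashtags 4 and 5 and in both cultures, without points under 10 CPM on both sides. All hashtag points share the direction of the graft. That was largely set by choosing the genes over cells that mostly carry these hashtags. *Tnfrsf9*, *Chil3*, *Selenop* and *Stab1* are among the genes on the other side of 0 in both cultures.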

How the data were processed

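The files hold a count of UMIs per gene and barcode, made by the authors with Cell Ranger (3.1.0 per the file headers) and deposited without normalisation or further filters, and the authors name Seurat 3.1.1 for later steps that were not used here. The submitters' notes name mm9, while the gene identifiers are mouse Ensembl ones. Coordinates are of GRCm38 (GENCODE M21), matched by identifier for 31011 of 31053 genes. The 20 hashtag antibody features were left out of gene totals. For 36 features whose symbol is on several features, levels were kept apart, and lists took the one with most UMIs.

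Barcodes with at least 300 genes, under 100000 gene UMIs and under 10% mitochondrial UMIs were kept, and 306, 2 and 330 barcodes failed these limits. Doublets were not called, and they were kept. The sides were set by *Trem2*, *Cd163*, the *Cd3* genes, *Mmp12* and *Lpl*, and the last 2 were left out of the ranked genes. Counts were summed over the cells of a side and divided by the gene UMIs. Ratios of sums carry exact conditional binomial intervals, levels exact Poisson intervals and shares of cells exact binomial intervals. Medians of lists add 1 CPM to each level and take genes with at least 10 CPM over both sides. Ratios of single genes in the report have nothing added, and those under other settings add 1 CPM.

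Genes named by rank are the 15 in each direction with the largest ratio among those with at least 50 CPM on the higher side and a UMI in at least 25% of its cells, without the genes that set the sides and without Gm and Rik names. Of each list, the members past 2-fold with at least 10 CPM on the higher side and the most abundant members were also named, with the label's markers. This rule, the gene lists and the settings compared were written before the data were examined for this contrast, but the members and lists were chosen with earlier results of these data known, so they give no independent support. Cells were thinned to 3000 UMIs for shares of cells with a UMI, and 3 high, 3 low and 8 T cells under that depth were left out. For comparison, T cells had at least 2 *Cd3* and at most 1 *Lyz2* UMIs, *Cd163* macrophages at least 2 *Cd163* and 2 *Mrc1* UMIs without *Cd3*, and monocytes at least 2 *Plac8* and 1 *Ly6c2* UMIs without *Trem2*, *Cd163* or *Cd3*. The steps were tested on simulated data with known differences. Python 3.11.15, numpy 2.4.6, scipy 1.17.1, pandas 2.3.3, matplotlib 3.10.9, R 4.3.3 and edgeR 4.0.16 (for TMM) were used. Results of 2 genes are not reported here.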

Additional observations from a re-analysis of the deposited data

Results flagged for a closer look

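Among the genes named by rank or as list members, 5 were past 2-fold in one direction in the graft and past 2-fold in the opposite direction in both cultures. Of the 194 genes called higher in graft high cells 7 were so, and of the 501 called lower 6. Of all genes tested, 4.9% in Co-Mac and 4.18% in VD-Mac were at least 2-fold higher in low cells. For high cells these shares were 7.77% and 3.25%. *Ccl2*, a monocyte chemokine, had a log2 ratio of −1.20 in the graft, 3.90 in Co-Mac and 2.22 in VD-Mac. For *Mrc1*, the mannose receptor, the values were −1.12, 3.55 and 1.39, and for *Pltp*, the phospholipid transfer protein, −1.33, 2.08 and 1.04. *Ccl5*, a T cell chemokine, had 3.08, −3.23 and −3.40, and within hashtag 4 of the graft it was −1.86, from levels under 10 CPM on both sides. *Tnfrsf9*, the receptor 4-1BB, had 3.11, −3.21 and −1.78. Each is 1 library per condition, and the difference between graft and cultures was not tested.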

How the results depend on the processing

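Of 25 settings, 4 change only the floor or the fold and so only the gene counts. In the others 84 named genes and 19 lists were computed again, with 1 CPM added to each level. The deepest 10% of cells left out and the limit of 0.1% of UMIs in markers of other types are 2 settings chosen after seeing the data. Within 15 settings of scaling, limits and depth, 8 of 1252 gene values changed direction, and within the hashtags 3 of 163. Of 19 list medians, 7 kept their sign in all 19 settings of graft cells, namely Trem2 partners, lipid genes, cathepsins, resident-type, monocyte, class II and glycolysis genes, and 12 lists changed sign in at least 1, most of them with medians near 0. The interferon list did so in 3, with *Lpl* alone, without cells of 2 UMIs of other markers and within hashtag 4, and the protease list in 1, with *Lpl* alone. The causes were not tested.

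The counts of genes higher in high and in low cells, 194 and 501, became 1660 and 3179 without a floor on the level, 81 and 173 with a floor of 50 CPM, 424 and 1529 at 1.5-fold and 92 and 145 at 3-fold, where the rule itself changes how many can pass. They were 317 and 295 with median-of-ratios and 319 and 290 with TMM scaling. Leaving out cells with 2 or more UMIs of markers of other types left 9 high and 17 low cells and gave 1252 and 2011 genes. At 5000 to 20000 UMIs there were 363 high genes from 78 high and 136 low cells, and thinned to 3000 UMIs 481 and 1115 genes. The low side had 133 cells with *Trem2* of at least 5 UMIs and 354 with at least 1. With the side set by *Lpl* alone 32 cells were high and 900 genes were low.

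With *Lpl* alone, which leaves 32 high cells, the log2 ratio changed direction for *Nos2* (−1.92), *Tnfrsf9* (−1.64), *AA467197* (−0.10), *Rsad2* (−1.71), *Chil3* (−2.96), *Egln3* (−1.61), *Mmp8* (−3.59), *Isg15* (−0.62), *Irf7* (−1.85), *Il1a* (−1.20), *Cxcl3* (−0.53), *Ccl5* (−3.80), *Bnip3* (−1.12), *Nr1h3* (0.0717) and *Mki67* (0.16).

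In the cells without 2 UMIs of other markers it did so for *AA467197* (−0.51), *Rsad2* (−4.67), *Chil3* (−1.27), *Mmp8* (−4.27), *Hp* (−1.05), *Rps6ka2* (−0.31), *Tfrc* (0.24), *Serpinb6a* (1.04), *Maf* (0.47), *Fcna* (1.52), *Ccl2* (1.51), *Ccl7* (0.69) and *Mcm6* (1.52).

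In Co-Mac the direction was opposite for *Tnfrsf9* (−3.15), *H2-M2* (−1.15), *Chil3* (−1.37), *Egln3* (−0.74), *Hp* (−1.35), *Ccl5* (−3.23), *Mgl2* (2.06), *Tfrc* (0.17), *Fcrls* (2.13), *Selenop* (0.63), *Stab1* (1.25), *Clec10a* (0.86), *Thbs1* (0.70), *Pltp* (1.82), *Nfatc1* (0.74), *Mrc1* (3.42), *C1qa* (2.69), *C1qc* (2.67), *Ccr2* (2.05), *Vcan* (0.14), *Ccl2* (3.79), *Mcm6* (0.32), *Rrm1* (0.80), *Mki67* (0.67), *Ndufa4* (0.14) and the median of resident-type genes (0.83). Medians of other lists also changed sign there: lysosome (0.73), fusion (0.57), inflammatory (1.08), stress (0.42), immediate early (0.37) and respiratory genes (0.13). Those of S phase (0.34) and G2 and M phase genes (0.39) did so too. The median of all genes in Co-Mac was 0.20. Some list members were under 10 CPM on both sides there, among them *Nos2*, *Il6*, *Il18* and *Ccl7* of the inflammatory list.

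In VD-Mac it was opposite for *Tnfrsf9* (−1.74), *H2-M2* (−0.37), *Chil3* (−0.22), *Ccl5* (−3.39), *Mgl2* (0.75), *Tfrc* (0.37), *Selenop* (0.10), *Stab1* (0.43), *Thbs1* (1.35), *Pltp* (0.92), *Mrc1* (1.35), *Ccl2* (2.21), *Mcm6* (0.0740), the median of resident-type genes (0.0198, which is 0.05 below that of all genes there) and that of monocyte genes (0.13). Medians of other lists also changed sign in VD-Mac: lysosome (0.54), fusion (0.14), interferon (−0.36), inflammatory (1.01) and stress genes (0.69). Those of immediate early (0.02), S phase (0.07) and respiratory genes (0.08) did so too. The median of all genes in VD-Mac was 0.07. Some list members were under 10 CPM on both sides there. Among them were *Rsad2*, *Irf7* and *Isg15* of the interferon list and *Nos2*, *Il6*, *Il18* and *Ccl7* of the inflammatory list.

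*Mmp9*, most of whose low level came from 1 cell, was 1.28 at 5000 to 20000 UMIs, 0.47 under 5% mitochondrial UMIs, 0.70 without the deepest cells and 1.05 within hashtag 5. At 5000 to 20000 UMIs *Nr1h3* (0.26), *Nfatc1* (0.0268) and *Il6* (0.69) changed too. Within hashtag 4 *Isg15* (−0.51) and *Irf7* (−1.53) did, with *Trem2* of at least 1 UMI *Hp* (−0.32), and thinned *Mcm6* (0.0243).

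Genes under 10 CPM on both sides gave no value, namely 29 in Co-Mac, 34 in VD-Mac, 12 without cells of 2 UMIs of other markers, 5 with *Trem2* of at least 5 UMIs, 4 in hashtag 4, 3 with *Lpl* alone, 2 under 0.1% of other markers, 1 in hashtag 5 and 1 at 5000 to 20000 UMIs.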
